A study of Bos taurus with 8 samples.

Results

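The comparison set cows fed diet M against cows fed diet S before calving, in blood polymorphonuclear leukocytes (PMNL) taken at day 7 after calving. It consisted of the 2 arrays, of 8 in the series, whose titles put a day 7 sample of diet M beside a day 7 sample of diet S. The series held 16 RNA samples of 8 Holstein cows, 4 per diet, at day -14 and day 7. Pair A set cow 7979 of diet M, in Cy3, against cow 7944 of diet S, in Cy5. Pair B had the dyes exchanged and set cow 7977 of diet M, in Cy5, against cow 8041 of diet S, in Cy3. The diets differed only in the dry period of 45 days. A straw-rich diet of 1.34 Mcal/kg met at least 100% of the energy need, and a corn silage diet of 1.62 Mcal/kg exceeded 140% of it. The labels do not say which of these was M and which S. After calving every cow ate the same lactation ration of 1.69 Mcal/kg, so both groups were on 1 diet when the day 7 blood was drawn. PMNL were obtained from tail vessel blood by centrifugation and cell lysis, with no sort by surface marker. From each sample 200 ng of RNA was labelled and hybridised to 2-colour Agilent bovine arrays, and the mean RNA integrity number was 7.7 ± 0.2 over all samples.

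PMNL are mostly neutrophils, short-lived cells that leave the marrow already equipped with granules and take up and kill microbes. They respond to interferons, cytokines and chemoattractants through surface receptors that act on a few shared transcription factors, among them the STAT, IRF, NF-kB and AP-1 proteins. Genes for ribosome assembly, mitochondria and nucleotide synthesis are busiest in immature, growing cells and decline as granulocytes mature. The week after calving is a time of negative energy balance and frequent infection in dairy cows, and overfeeding in the dry period is studied for its effect on both.

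All values below are log2 differences, diet M minus diet S, with the deposited ratio read as Cy5 over Cy3. Neither the labels nor the files state the direction of the ratio. On the other reading every sign turns. If only 1 of the 2 columns ran the other way, genes given here with the same sign on both arrays would have opposite signs and the reverse. In all 8 columns the channel on top of the ratio had more readings near the scanner's upper limit than the channel below it. That count does not name the dye.

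Pair A gave a value for 31128 and pair B for 29885 of 43803 features, with a median recovered brightness of 48.4 and 27.9 intensity units. The deposited ratios were not normalised, so each array was corrected for brightness by loess. Genes were followed in the 13080 rows with a value on all 8 arrays, of which 8503 were genes with a symbol and the others single features with none. Features of 1 gene were averaged. In 1082 of 4213 genes with several features (25.7%) the features differed in sign. Pair B stood apart from pair A in its spread: the SD over all rows was 1.49 on pair B and 0.76 on pair A, and 43.7% and 14.0% of the rows lay past 1 in either direction. Pair B held the RNA of cows 7977 and 8041, so the value on pair A is also the value without those cows. The spread was not traced to either cow. A model without both arrays of 1 cow was run for cow 8041 only. Of 13 neutrophil markers on the platform, 12 had a value on both arrays, as did 19 of 20 T and NK cell markers, 11 of 11 B cell markers and 9 of 10 monocyte markers. A ratio gives no level, so these counts do not say how pure the PMNL were. In these bulk samples fewer cells of a type and less RNA per cell cannot be told apart.

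Across genes the pairs resembled each other little. Over the 13080 rows, 3575 (27.3%) were positive on both arrays and 3769 (28.8%) negative on both. A further 2847 (21.8%) were positive on pair A and negative on pair B, and 2889 (22.1%) the reverse. Pearson's r between the pairs was 0.094 and Spearman's rank correlation 0.136 across rows, which are not independent replicates. Past 1 on both arrays, a 2-fold difference, 622 rows (4.76%) had 1 sign, with 484 (3.7%) positive and 138 (1.06%) negative, and 371 (2.84%) had opposite signs. Of the opposite rows, 260 were negative on pair A and positive on pair B. Diet M was in Cy3 on pair A and in Cy5 on pair B. For opposite signs, pair and dye therefore cannot be told apart. The plot of pair B against pair A shows these classes, with a cloud that is wider along pair B.

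**Figure D1:**
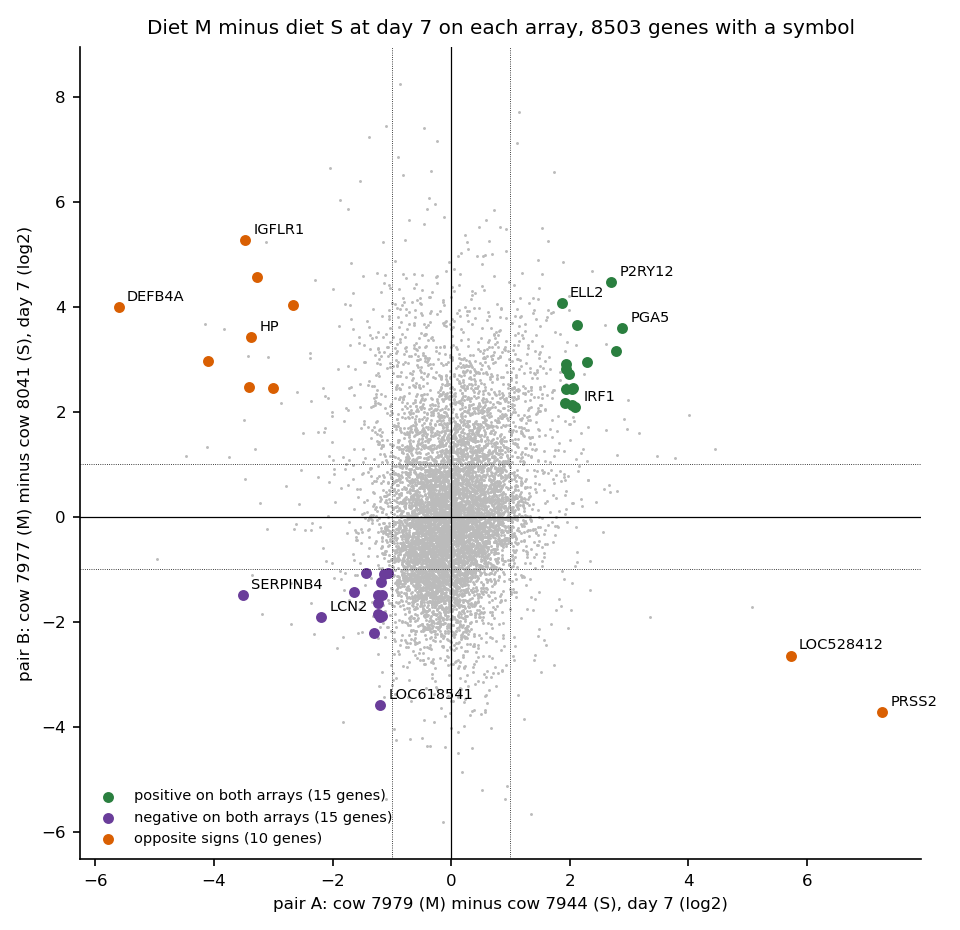
Each point is 1 of 8503 genes, with the log2 difference M minus S (ratio read as Cy5 over Cy3) on pair A on the horizontal and on pair B on the vertical axis, and dotted lines at 1 and -1. Coloured points are genes with a brightness of at least 64, ranked by the value on the array nearer 0: the first 15 with positive values on both arrays, the first 15 with negative values on both and the first 10 with opposite signs. The cloud is wider along pair B than along pair A.

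The 6 other arrays gave an estimate of the same difference that shares no RNA sample with the 2 day 7 arrays. It adds the change with calving in diet M to the diet difference at day -14 and takes off the change with calving in diet S. Its day 7 RNA came from the 4 cows not on pairs A and B, while all 4 cows of those pairs entered it at day -14. For the change with calving in diet M, cows 7821 and 7973 were each set beside themselves. In diet S different cows were paired, cow 7631 at day 7 with cow 8041 at day -14, and cow 7472 with cow 7944. The diet S change thus also holds differences between cows. Over all rows this path was positive for 5955 of 13080 (45.5%). Of the 484 rows above 1 on both day 7 arrays, 460 were positive on it, with a median of 2.22, and of the 138 rows below -1 on both, 120 were negative, with a median of -1.21. Rows past 1 with opposite signs lay nearer the overall share. There 46 of 111 that were positive on pair A and negative on pair B were positive on the path, and 101 of 260 of the reverse class. Across rows the path had r = 0.423 with pair A, 0.557 with pair B and 0.664 with their mean. These points share probes and cows.

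A limma model over all 8 arrays combined both sources, with 75% of the estimate from the mean of the 2 day 7 arrays and 25% from the path over the 6 others. It left 4 residual degrees of freedom, and the median standard error (SE) of a difference was 0.3425. At an adjusted p under 0.05 (Benjamini-Hochberg over all rows) it called 1 of 13080 rows (0.00765%), a feature with no symbol that is described here because of its value. The feature had 3.44 on pair A and 4.26 on pair B, and limma gave 3.82 ± 0.31 (adjusted p = 0.0333). Without adjustment, 1939 rows were positive (14.8%) and 1833 negative (14.0%) at a p under 0.05. No gene with a symbol was called. The count depended on the setting. Among features with a brightness of at least 64 limma called 366 of 9591 rows (3.82%), 324 positive and 42 negative, of which 249 were genes with a symbol. It called 43 rows on the values as deposited, 27 of them with a symbol, and 78 without pair A, 54 of them with a symbol. It called 0 without pair B, 0 without both arrays of cow 8041, with 1333 at the unadjusted threshold, and 0 on the 2 day 7 arrays alone, with 839. These p-values cover variation among the 8 hybridisations and nothing beyond it.

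The 15 genes described first had positive values on both arrays and the largest values on the array nearer 0, among genes with a brightness of at least 64. P2RY12, the ADP receptor known from platelets, had 2.70 on pair A and 4.47 on pair B, and the model gave 3.78 ± 0.44 (limma adjusted p = 0.054). P2RY13, another ADP receptor, had 2.13 and 3.65. Both genes were positive on the 6 other arrays too, at 4.36 and 1.75. IRF1, a transcription factor induced by interferon, had 2.09 on both arrays and 2.45 on the others. Its values differed least between the pairs among these genes.

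Metabolic members of this group included DGAT2, which makes the last step of triglyceride synthesis, with 1.99 on pair A, 2.71 on pair B and 3.17 on the others. SDS, which breaks down serine, had 1.94, 2.81 and 4.56 on the same 3. Both were bright, with a median of 4092 and 3620 intensity units. PGA5, a pepsinogen, had 2.89 and 3.60 on the day 7 arrays but 0.43 on the others. RBP2, a retinol carrier, had 2.77 and 3.17, with 3.02 on the others. PGA5 was thus the gene of these 15 with the least on the arrays that hold other cows at day 7.

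The cytoskeleton was represented by CORO6, a coronin that binds actin, with 2.05 and 2.14 on pairs A and B, and by SSH2, a phosphatase that activates cofilin, with 1.94 and 2.91. PRR5L, a partner of the kinase complex mTORC2, had 2.30 and 2.94. WLS, which carries Wnt proteins to the cell surface, had 2.04 and 2.43. RASGEF1B, an exchange factor for Ras-family GTPases, had 1.94 and 2.43. CCDC8, a partner of the CUL7 ubiquitin ligase complex, had 1.93 and 2.16, and the elongation factor ELL2 had 1.86 and 4.07. LOC510904, which the platform gives no other name, had 2.06 and 2.46. Adjusted p-values of these 15 genes in limma ran from 0.054 to 0.083, so none passed. With bright features alone 14 of the 15 passed, on the values as deposited 9, without pair A 5 and without the dye term 2. Over all settings run their limma adjusted p-values ranged from 0.0334 to 0.656. The 15 genes were chosen by their values on the 2 arrays that give 75% of the estimate. The setting with bright features also uses the brightness limit of that choice. These p-values and counts therefore follow in part from the choice and are no separate support.

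On the negative side LCN2, a granule protein that takes iron carriers from bacteria, had -2.19 on pair A and -1.91 on pair B. It had -3.77 on the 6 other arrays, and the model gave -2.48 ± 0.48 (limma adjusted p = 0.0652). SERPINB4, a protease inhibitor, had -3.52 and -1.49, with -0.36 on the others. LIG1, H1-3 and APTX act on DNA or chromatin. LIG1, which joins DNA strands in replication, had -1.30 and -2.21. The linker histone H1-3 had -1.23 and -1.65. APTX, which repairs broken DNA ends, had -1.16 and -1.48. For LIG1 the 2 features differed, with means over both arrays of -2.68 and -0.83.

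The others had various roles. CUL2, the scaffold of a ubiquitin ligase, had -1.63 and -1.43, with feature means from -2.67 to -0.72. RHOT1, which tethers mitochondria to transport along microtubules, had -1.20 and -1.91. GCSH of the glycine cleavage system had -1.44 and -1.07, and DECR1, which takes part in the oxidation of unsaturated fatty acids, had -1.06 on each. SNRPD3, a core protein of the spliceosome, had -1.13 and -1.10. ZEB2, a transcriptional repressor, had -1.23 and -1.85, and the transporter ATP13A3 had -1.18 and -1.24. H1-12, LOC100196901 and LOC618541 completed the 15, at -1.16 and -1.89, -1.23 and -1.48, and -1.20 and -3.59. The last was near 0 on the other arrays, at 0.19. Limma's adjusted p-values of the 15 ran from 0.0651 to 0.178. With bright features alone 6 of the 15 passed, and over all settings run the limma adjusted p-values ranged from 0.0349 to 0.811. These genes were chosen in the same way as the positive ones, so here too the p-values are no separate support.

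**Figure D2:**
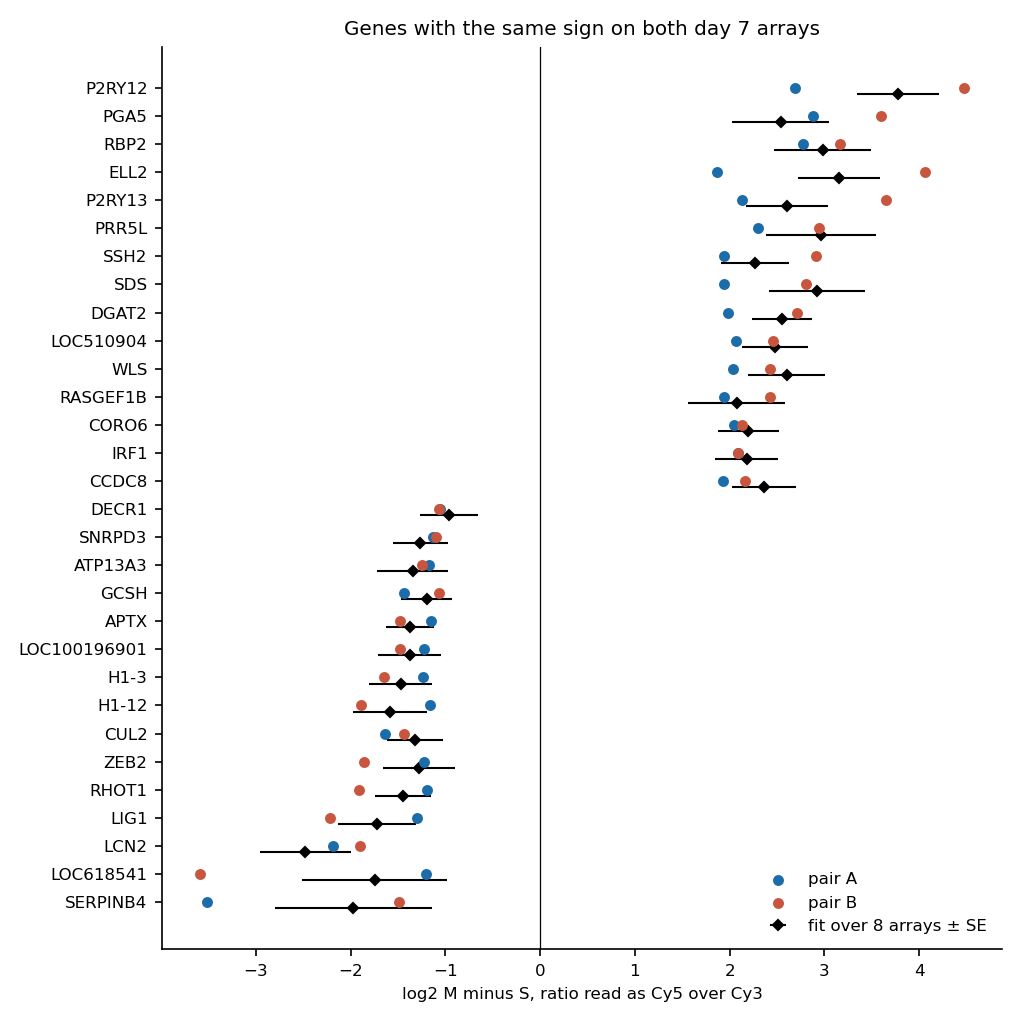
For each of 30 genes the blue point is pair A, the red point pair B and the black diamond the estimate over 8 arrays with its SE, on an axis of log2 M minus S (ratio read as Cy5 over Cy3). Pair B lay further from 0 than pair A in most of them.

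Of the 10 genes with opposite signs and the largest values on the array nearer 0, 5 encode proteins of innate defence or the acute phase. DEFB4A, a beta-defensin, had -5.61 on pair A and 4.00 on pair B. Haptoglobin, HP, an acute-phase protein stored in bovine neutrophils, had -3.38 and 3.43, and resistin, RETN, had -4.09 and 2.98. BPI, a granule protein that kills Gram-negative bacteria, had -3.00 and 2.45, and the beta-defensin DEFB10 had -3.41 and 2.47. On pair A the ratios of these 5 genes put cow 7979 of diet M below cow 7944 of diet S. On pair B they put cow 7977 of diet M above cow 8041 of diet S.

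The same pattern held for THBD, the anticoagulant receptor thrombomodulin, with -3.27 and 4.56, for the receptor IGFLR1, with -3.48 and 5.27, and for the metalloproteinase MMP19, with -2.67 and 4.04. PRSS2, a trypsinogen, and LOC528412 were opposite the other way, with 7.28 and -3.73, and 5.73 and -2.64. The 10 genes were chosen for their opposite signs, and the means over both arrays do not describe either pair. Because the dyes were exchanged, a dye effect on a gene and a difference between the pairs of cows cannot be told apart here. The part of each was not tested.

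Among gene lists, interferon-stimulated genes had the largest share of members positive on both arrays. Of 58 listed genes 43 had a value on all 8 arrays, and 32 were positive on both day 7 arrays and 1 negative on both, against 27.3% and 28.8% of all rows. The median was 1.45 on pair A, 0.87 on pair B and 1.36 on the 6 other arrays. The 5 transcription factors of the list were positive on both arrays, with medians of 1.76 and 1.64, among them IRF9, a DNA-binding factor of interferon signalling, at 1.79 and 1.64. SAMD9, an antiviral effector, had 2.31 and 1.71. IFI6 and GBP4 were opposite, at 1.85 and -1.70, and at 2.09 and -0.94. Among the lists with positive medians on both arrays, only this list and the red cell markers had the larger median on pair A. The shares of all rows, 27.3% and 28.8%, apply to the counts of each list below as well. Genes named from lists had no minimum brightness, and some were dim.

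Cytokine receptors and their inhibitors were positive as a group. Of 31 measured genes of 54, 22 were positive on both arrays and 0 negative on both, with medians of 0.71 on pair A, 1.93 on pair B and 0.83 on the others. SOCS3, the feedback inhibitor of JAK kinases, had 2.61 and 3.29, and 3.52 on the others, at a median brightness of 11.8. IL15RA, which presents interleukin-15, had 2.24 and 2.72, at a median brightness of 24.2. IL10RB, a chain shared by receptors of the interleukin-10 family, had 1.27 and 1.79, and IFNAR2, a chain of the type I interferon receptor, had 1.23 and 2.74. The 8 measured inhibitors had medians of 1.01 and 1.10, and the 20 receptors 0.69 and 2.13. SOCS2 stood against the list on pair A, at -1.39, and was at 7.25 on pair B.

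G protein-coupled receptors for lipid mediators and peptides, with their regulators, were likewise mostly positive, 21 of 30 on both arrays and 3 negative on both, with medians of 0.43 and 1.63. ADGRE5, the adhesion receptor CD97, had 1.29 and 3.21, and GRK2, a kinase that switches such receptors off, had 1.08 and 1.73. The regulator RGS2, carried on the platform as LOC513055, had 1.06 and 3.28. Among the 12 regulators 10 were positive on both. The leukotriene receptors were on the other side, LTB4R at -0.76 and -1.14 and CYSLTR1 at -0.59 and -2.18. For LTB4R the 6 other arrays gave 0.13.

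Purinergic genes beyond P2RY12 and P2RY13 were divided. Of the 12 others measured, 4 were positive on both arrays and 3 negative on both, against 27.3% and 28.8% of all rows. Their medians were 0.12 and -0.11. ENTPD1, which breaks down extracellular ATP, had 0.55 and 3.03. P2RY10 had -0.47 and -0.88, and the adenosine receptor ADORA2B -0.43 and -1.79. The adenosine receptor ADORA2A was opposite on the pairs, at -0.61 and 2.50.

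The transcription factors and inhibitors that act downstream of these receptors were positive more often than not. Of 24 NF-kB genes 14 were positive on both arrays and 3 negative on both, with medians of 0.37 and 1.08. BCL3, an atypical inhibitor that binds NF-kB in the nucleus, had 1.92 and 3.15, with 4.75 on the 6 other arrays. Its median brightness was 12.15. TNIP1, which restrains NF-kB with A20, had 1.19 and 2.87. The 9 inhibitors had medians of 0.50 and 1.67, and the 10 kinases of the pathway -0.09 and 0.46. The kinase MAP3K7 was at -0.23 on both arrays. Inhibitors were thus positive on both arrays in 7 of 9 cases, the NF-kB subunits in 4 of 5 and kinases in 3 of 10. The subunits had medians of 0.80 and 0.18.

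Immediate early and AP-1 genes, which cells switch on within minutes of a stimulus, were positive on both arrays in 13 of 23 and negative on both in 0, with medians of 0.59 and 1.71. ZFP36, which destabilises cytokine mRNAs, had 1.84 and 2.75. CREM, a transcription factor of the cAMP response, had 1.42 and 2.72, BTG2, an inhibitor of proliferation, 1.42 and 3.15, and JUNB, an AP-1 protein, 1.14 and 2.30. ZFP36L2 and IER3 were opposite, at 1.77 and -1.78, and at -1.12 and 4.46, with a median brightness of 7.4 and 54.4. All 4 genes that led the list were also positive on the 6 other arrays, between 1.84 and 3.69.

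MAP kinases and their phosphatases had 13 of 25 positive on both and 3 negative on both, with medians of 0.09 and 1.44. DUSP2, a phosphatase that turns MAP kinases off, had 1.21 and 3.40. MAP2K7, a kinase of the JNK branch, had -0.65 and -1.17 but 3.04 on the 6 other arrays, at a median brightness of 7.4. Tumour necrosis factor ligands and receptors had 9 of 30 positive on both (30%, against 27.3% of all rows) and 3 negative on both (10%, against 28.8%). In that list the death receptor FAS had 1.64 and 3.94, and the kinase RIPK1, which acts below TNF receptor 1, had 0.98 and 1.07. The ligand TNFSF13, which supports B cells, was opposite, at -1.03 and 3.33.

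Toll-like receptors and adaptors were positive on both arrays in 11 of 20 and negative on both in 1, and interleukin-1 and inflammasome genes in 9 of 13 and 0. TLR8, a sensor of single-stranded RNA, had 2.98 and 2.23, and TLR5, a sensor of flagellin, 1.12 and 1.35. Their median brightness was 26.4 and 54.7. NLRP3, the inflammasome sensor, had 2.74 and 4.51, at a median brightness of 10.5. IRAK3, which inhibits Toll-like receptor signals, and the decoy receptor IL1R2 were negative on pair A alone, at -1.65 and -2.87. On pair B they were positive, at 0.73 and 2.17. The median brightness of IRAK3 was 3.6.

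**Figure D3:**
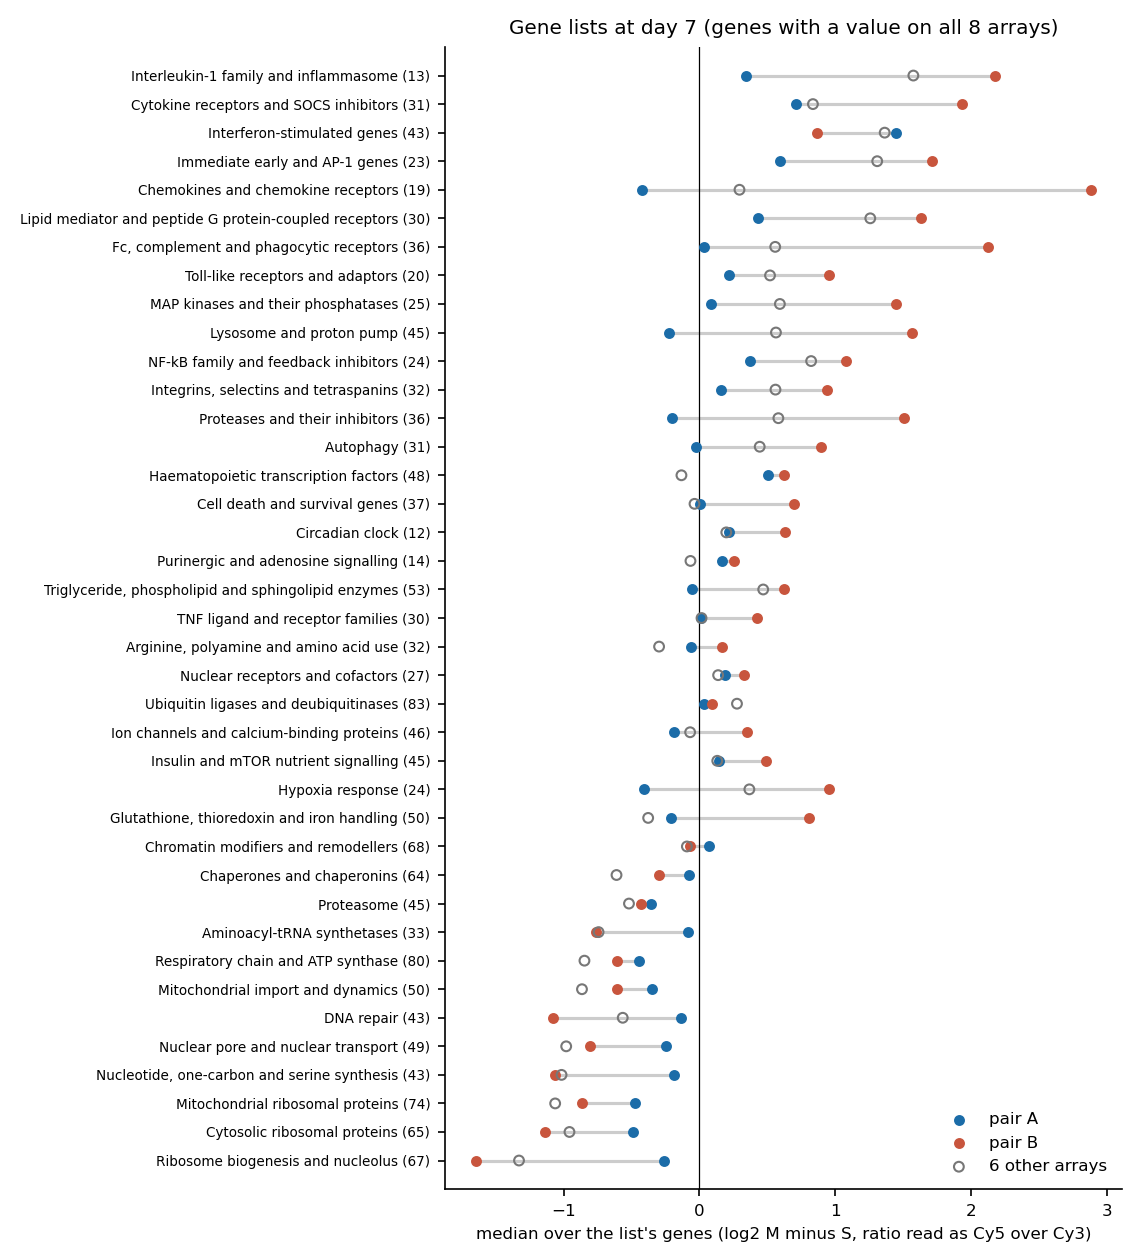
Median log2 difference M minus S (ratio read as Cy5 over Cy3) of the genes of 39 lists on pair A (blue), pair B (red) and by way of the 6 other arrays (open), with the number of measured genes in brackets. Ribosome biogenesis had the lowest median mean over both arrays. Chemokines had -0.42 on pair A and 2.88 on pair B.

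A second set of lists was positive on pair B but near 0 or negative on pair A. With diet M in Cy5 on pair B and in Cy3 on pair A, a difference between the pairs cannot be told apart from one between the dyes. Chemokines and their receptors had medians of -0.42 and 2.88 over 19 genes, 12 of them negative on pair A and positive on pair B (22.1% of all rows). Of 9 ligands 0 were positive on both arrays. The 4 genes that were are receptors, among them CXCR1, a receptor of interleukin-8, at 1.43 and 3.78 and CCR1 at 1.20 and 4.65. CXCR6 and CCL5 had -2.39 and 3.12, and -1.75 and 2.04. Lysosomal genes had medians of -0.22 and 1.56, and 24 of 45 were negative on pair A and positive on pair B. CD63, a granule and lysosome membrane protein, had -1.32 and 3.96. ATP6V0C of the proton pump had 0.86 and 1.88, and the peptidase TPP1 1.42 and 0.78.

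Fc, complement and phagocytic receptors had medians of 0.03 and 2.12 over 36 genes. Of these, 15 were positive on both and 16 negative on pair A alone, against 27.3% and 22.1% of all rows. FCGR3A, the low-affinity IgG receptor CD16, had 1.49 and 3.02, and its signalling chain FCER1G 1.22 and 2.50. CFB, complement factor B, and CD46, which protects host cells from complement, were negative on both. CFB had -3.11 and -0.24, and -3.60 on the 6 other arrays, and CD46 had -0.04 on each pair. Proteases and inhibitors had medians of -0.20 and 1.51, with 13 of 36 positive on both and 19 negative on pair A alone. ADAMDEC1, a secreted metalloproteinase, had 4.02 and 1.93. MMP9, gelatinase B of the tertiary granules, had -2.35 and 2.21.

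Integrins, selectins and tetraspanins had medians of 0.16 and 0.94, with 16 of 32 positive on both. SELPLG, the ligand of P-selectin, had 1.67 and 2.82, and the integrin chain ITGB7 1.09 and 2.57, while the tetraspanin CD9 had -2.13 and 2.31. Among 10 integrins 8 were positive on both arrays, and among 15 tetraspanins 4. Actin and actin-binding genes had medians of -0.27 and 0.72. Of 34 genes 11 were positive on both and 20 negative on pair A alone, against 27.3% and 22.1% of all rows. TMSB4X, the thymosin that holds free actin, had -1.29 and 1.10. Autophagy genes had medians of -0.02 and 0.90, with 13 of 31 positive on both, among them GABARAPL1, a protein of the autophagosome membrane, at 1.00 and 1.68.

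**Figure D4:**
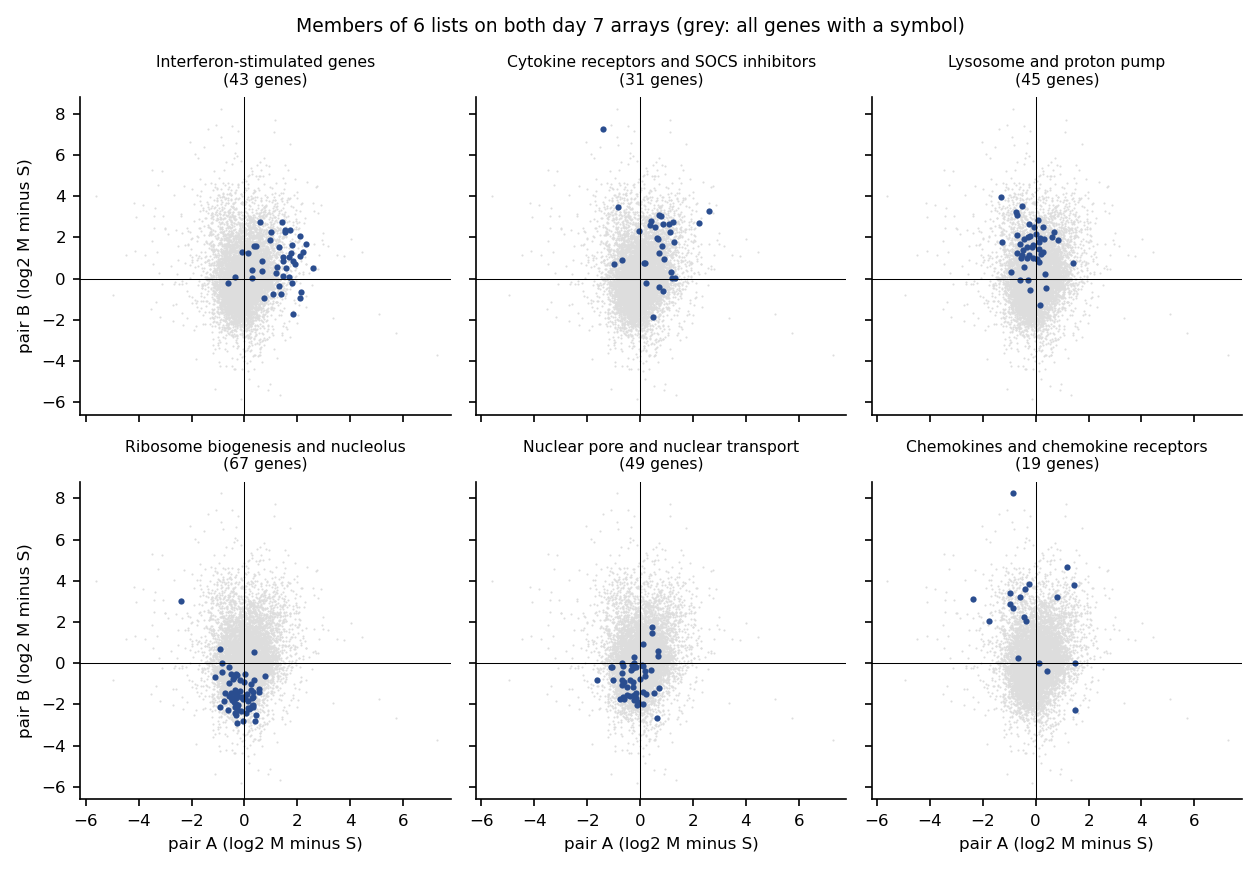
Each panel shows the members of 1 list in blue over all genes with a symbol in grey, with pair A on the horizontal and pair B on the vertical axis (log2 M minus S, ratio read as Cy5 over Cy3). Interferon-stimulated genes and cytokine receptors lie mostly at upper right, lysosomal genes and chemokines above 0 on pair B with both signs on pair A, and ribosome biogenesis and nuclear pore genes below 0 on pair B.

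Genes for making ribosomes were mostly negative. Of 67 measured genes of 79 for ribosome biogenesis, the assembly of ribosomes in the nucleolus, 42 were negative on both day 7 arrays and 1 positive on both. The median was -0.26 on pair A, -1.65 on pair B and -1.33 on the 6 other arrays, where 0 of 67 were positive. GAR1, a protein of the particles that modify ribosomal RNA, had -0.93 and -2.11. WDR12, which acts in large subunit assembly, had -0.78 and -1.85, and UTP14A, in small subunit processing, -0.75 and -1.45. NOP10, a partner of GAR1, had -1.12 and -0.66. A further 22 genes were positive on pair A and negative on pair B. TBL3 was the gene positive on both, at 0.35 and 0.54, but had -2.17 on the 6 other arrays. Its median brightness was 21.7.

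The products of that assembly lay on the same side, with 61 of 65 cytosolic ribosomal protein genes negative on both arrays and 0 positive on both. Mitochondrial ribosomal proteins were negative on both in 59 of 74, the respiratory chain and ATP synthase in 61 of 80 and the proteasome in 27 of 45. RPL37 had -0.86 and -1.33, MRPL16 -0.94 and -1.26, and the complex I subunit NDUFB1 -1.05 and -0.92. The exceptions in these lists included PSMB8, a subunit of the immunoproteasome that interferon induces, at 1.37 and 0.16, and COX7A1, at 0.65 and 0.28.

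Traffic into organelles followed the same direction. Of 50 genes for mitochondrial import and dynamics 34 were negative on both arrays and 3 positive on both, with medians of -0.35 and -0.60. The negative sign was more frequent in the 33 import genes, 27 on both, than in the 17 genes of fusion, fission and gene expression, 7 on both. TIMM10B, a chaperone of the space between the membranes, had -0.90 and -1.24. NRF1, a transcription factor for mitochondrial genes, had 1.01 and 2.65, at a median brightness of 14.3. Nuclear pore and transport genes were negative on both in 31 of 49 and positive on both in 5, with medians of -0.24 and -0.81. The import receptor IPO7 had -1.01 and -0.83 and the pore protein NUP155 -0.74 and -1.74, while NUP153 of the nuclear basket had 0.67 and 0.60. IPO13 had -1.63 and -0.83 on the day 7 arrays but 1.23 on the others, at a median brightness of 14.0.

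Folding proteins were divided by compartment. Of 64 chaperone genes 27 were negative on both arrays and 15 positive on both. The 14 genes of the cytosolic chaperonin and its helper prefoldin had 11 negative on both and 0 positive on both, among them VBP1 at -1.15 and -2.03. The 22 genes of the endoplasmic reticulum had 1 negative on both and 10 positive on both, with medians of 0.22 and 0.40, and -0.37 on the 6 other arrays. HSPA1A, the inducible heat shock protein, had 0.56 and 1.89.

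Nucleotide synthesis and DNA repair lists had larger shares negative on both arrays than the 28.8% of all rows. Of 43 genes for nucleotide, one-carbon and serine synthesis 22 were negative on both and 3 positive on both, with medians of -0.19 and -1.06. The 11 pyrimidine genes had 10 negative on both. PPAT, which starts purine synthesis, had -1.03 and -1.86, and CTPS1, which makes CTP, -0.74 and -2.03. PHGDH, the first enzyme of serine synthesis, was opposite, at 1.17 and -1.94. Of 43 DNA repair genes 20 were negative on both and 4 positive on both, with medians of -0.14 and -1.08. BARD1, the partner of BRCA1, had -0.96 and -1.70, and FANCM of the Fanconi pathway -0.75 and -1.53. Over all features with a value on both day 7 arrays, the mean of BARD1 was 0.70, against its mean of -1.33 here.

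Aminoacyl-tRNA synthetases, which load amino acids on tRNAs, had 15 of 33 negative on both and 8 positive on both. The positive members included WARS1, which interferon induces, at 1.33 and 1.38, and TARS1 at 0.98 and 2.31, and the negative ones FARSB at -0.90 and -0.84. Chromatin modifiers had equal counts, with 16 of 68 positive and 16 negative on both arrays (23.5% each, against 27.3% and 28.8% of all rows). The acetyltransferases CREBBP and KAT2B had 0.91 and 0.90, and 0.89 and 2.24. Ubiquitin ligases and deubiquitinases had 31 of 83 positive on both and 20 negative on both (37.35% and 24.1%). The 53 ligases had 25 positive on both, for example RNF149 at 1.28 and 3.11, and the 30 deubiquitinases 6.

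Lipid enzymes differed by branch. Of 17 triglyceride genes 9 were positive on both arrays and 1 negative on both, with medians of 0.42 and 1.16. Besides DGAT2 they included DGAT1, which catalyses the same step, at 0.90 and 0.62, while PLIN5, a coat protein of lipid droplets, had -1.18 and -0.27. G0S2, which inhibits the lipase ATGL, was at -0.81 and 4.17. Of 16 phospholipid genes 3 were positive and 5 negative on both, and of 20 sphingolipid genes 4 and 2. LPCAT2, which makes platelet-activating factor, had 1.12 and 2.40. Over the whole list 16 of 53 were positive and 8 negative on both arrays (30.2% and 15.1%, against 27.3% and 28.8% of all rows).

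Genes of insulin and nutrient signalling also differed by branch, with 17 of 45 positive and 7 negative on both. These were 37.8% and 15.6%, against 27.3% and 28.8% of all rows. The 17 insulin genes had 11 positive and 0 negative on both, with medians of 0.53 and 1.11, among them FOXO4 at 0.97 and 1.11, GSK3A at 0.77 and 1.32 and FOXO3 at 0.72 and 1.40. FOXO3 and FOXO4 are transcription factors that insulin signalling keeps out of the nucleus. The 20 genes of mTOR complexes and amino acid sensing had 5 on each side, and the 8 of the AMPK group 1 positive and 2 negative. SESN1 and SESN2, stress-induced inhibitors of mTOR, had -0.68 and -1.96, and -2.50 and 1.59.

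Glutathione, thioredoxin and iron genes were evenly divided, with 14 of 50 on each side (28%), near the 27.3% and 28.8% of all rows. GPX3, a secreted glutathione peroxidase, had 1.90 and 4.86, and STEAP4, a metal reductase, 1.56 and 2.50. GLRX5, which acts in iron-sulfur cluster assembly, had 3.77 and 1.12 but 0.03 on the 6 other arrays. Lactoferrin, LTF, was opposite, at -3.49 and 1.84. Arginine and amino acid genes had 6 of 32 positive and 7 negative on both (18.75% and 21.9%). The nitric oxide synthase NOS3 had 1.58 and 1.06, and the branched-chain ketoacid dehydrogenase subunit BCKDHA -0.57 and -0.99.

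Haematopoietic transcription factors had 22 of 48 positive and 7 negative on both, and 14 of them (3.7% of all rows) were above 1 on both. The median was 0.50 on pair A and 0.62 on pair B, and -0.13 on the 6 other arrays. OLIG1 had 2.17 and 3.66 and PBX4 2.04 and 2.73, at a median brightness of 11.9 and 15.9. MXD1, an antagonist of MYC that rises as neutrophils mature, had 1.84 and 3.49. ID3, an inhibitor of E proteins, had 1.99 and 3.93 but -0.66 on the others. CEBPE, which drives granule genes in myelocytes, had -1.70 and 3.28.

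Nuclear receptors and cofactors had 10 of 27 positive and 1 negative on both, with the retinoic acid receptors RARA at 1.25 and 1.19 and RARG at 0.96 and 1.25, and PPARD, a fatty acid sensor, at 1.06 and 2.47. PPARG and the vitamin D receptor VDR were opposite, at -1.55 and 3.43, and at -1.32 and 2.11. Circadian clock genes had 5 of 12 positive and 1 negative on both, with NFIL3 at 1.48 and 4.36 and CRY1 at -0.61 and -0.84. Hypoxia genes had 6 of 24 on each side (25%, against 27.3% and 28.8% of all rows) and medians of -0.41 and 0.95. The glycolytic regulator PFKFB4 had 0.93 and 5.47, and ANKRD37 -2.11 and -0.83.

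Cell death and survival genes had 13 of 37 positive and 7 negative on both (35.1% and 18.9%, against 27.3% and 28.8% of all rows). BCL2L11, which encodes the death inducer BIM, had 1.71 and 3.91, and the survival kinases PIM1 and PIM2 had 1.28 and 1.90, and 1.08 and 1.38. Genes for and against death were thus both among the positive ones. Ion channels and calcium-binding proteins had 5 of 46 positive and 9 negative on both (10.9% and 19.6%). A further 23 were negative on pair A and positive on pair B (22.1% of all rows). KCNJ2, an inward rectifier potassium channel, had 1.12 and 7.12. The calcineurin catalytic subunit PPP3CB had -0.73 on each array and on the 6 others, and S100A4 had -1.37 and 3.20.

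Apart from red cells, the median of every marker list lay further from 0 on pair B than on pair A. Pair B was also wider over all rows, with an SD of 1.49 against 0.76. Monocyte markers had a median of -0.66 on pair A and 2.71 on pair B (9 genes, -0.98 to 1.20 and 1.95 to 4.09), and 7 were negative on pair A and positive on pair B. Eosinophil and basophil markers had -0.03 and 5.87 (5 genes), with CCR3, the eotaxin receptor, at -0.87 and 8.25 and GATA2 at 1.74 and 6.56. B cell markers ran the other way, with 0.69 and -2.75 (10 genes), and 8 were positive on pair A and negative on pair B, among them CD79A of the B cell receptor at 1.74 and -2.82. T and NK cell markers had 0.18 and 1.11 (18 genes), with CD3E at 0.49 and 0.64 and CD8A at -1.47 and 2.96.

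The 12 neutrophil markers themselves had 0.32 and 1.96, with 7 positive on both, 0 negative on both and 5 negative on pair A and positive on pair B. Platelet markers had -0.18 and 1.88 (4 genes), and red cell markers 0.27 and 0.03 (4 genes), with the beta-globin gene HBB at -0.78 and 5.27. On pair B the gene lists with the largest positive medians were chemokines, interleukin-1 genes and phagocytic receptors. Medians of monocyte and eosinophil markers were positive there, and so were those of neutrophil, platelet and T and NK cell markers, at 1.96, 1.88 and 1.11. Gene lists and marker lists share members, such as CCR3, so they are not independent. On pair A the medians of monocyte and eosinophil markers were near 0 or negative. The part of cell composition in the gene lists was not tested. Nor was the part of dye in lists, of genes or of markers, with opposite signs on the pairs.

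**Figure D5:**
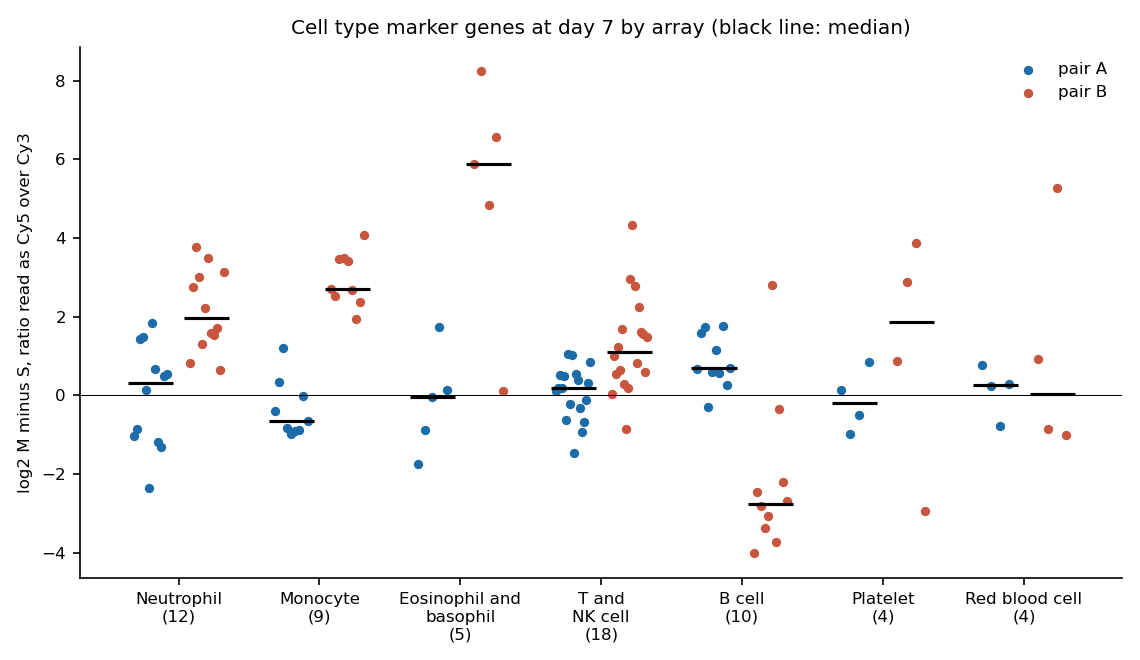
Each point is a marker gene, pair A in blue and pair B in red, on an axis of log2 M minus S (ratio read as Cy5 over Cy3), with the median as a black line and the number of genes in brackets. Monocyte and B cell medians have opposite signs on the pairs, and the eosinophil and basophil median is 5.87 on pair B.

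Set against the 2 arrays that paired the diets at day -14, the diet difference at day 7 was not shown to differ for any gene. Limma called 0 of 13080 rows for the difference between days (0.0%) at an adjusted p under 0.05, and 832 (6.36%) at an unadjusted p under 0.05. Under each other setting tried it also called 0. The largest moderated t on the positive side among bright genes belonged to HERC6, an interferon-induced ligase, with 1.71 and 2.38 at day 7 and 0.87 and 0.31 at day -14. The model put the difference between the days at 1.76 ± 0.30 (limma adjusted p = 0.716). DGAT2 had 0.51 and 1.01 at day -14, a difference of 1.99 ± 0.36, and P2RY12 had 2.16 and 0.44, a difference of 2.68 ± 0.50, at the same adjusted p from limma. TMEM140 and the semaphorin SEMA4D followed, with differences of 2.15 ± 0.41 and 2.41 ± 0.46.

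On the negative side CKAP4, a membrane protein of the endoplasmic reticulum, had -1.17 and -0.55 at day 7 and 0.42 and -0.40 at day -14. SQLE of cholesterol synthesis had -0.79 and -1.76, against -0.40 and 0.27. SDHAF3, an assembly factor of complex II, had -0.70 and -2.25, against -0.97 and 0.05, and RAB6A of Golgi traffic -0.81 and -0.63, against -0.08 and 1.52. No list with medians of 1 sign on both day 7 arrays had medians of the other sign on both day -14 arrays. Ribosome biogenesis had -0.71 and -0.80 on the day -14 arrays, and interferon-stimulated genes 0.43 and 0.37. Medians of cytokine receptors were 0.42 and 0.58 there. The day -14 arrays held the same diet M cows as the day 7 arrays, 7979 and 7977, beside other diet S cows. Values of the 2 days are thus not from separate animals.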

How the data were processed

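PMNL RNA of 8 cows at 2 days was hybridised to 8 two-colour arrays. As deposited, each array's column holds log2 ratios between its channels, with no header on how they were made, and the labels name neither scanner nor spot filter. Raised as powers of 2, 97.8 to 98.5% of an array's values were ratios of whole numbers (up to 10000, tolerance 1e-09), and 1.89 to 2.35% after a shift, so they were taken as unnormalised intensities. The design had assumed normalised ratios, and a loess on the brightness recovered from the whole numbers (span 0.4, degree 1, 4 iterations) was therefore added. Symbols came from the platform annotation, updated through RefSeq: 30788 features had 1 symbol and 13015 none. Ratios were turned to M minus S, and features of a gene with values on all 8 arrays were averaged. The model was limma 3.58.1 in R 4.3.3 (lmFit, eBayes, 3.64 prior degrees of freedom), with terms for the 4 groups and for dye, two-sided, and was tested on simulated data. Values on the 2 day 7 arrays alone carry no test. Genes were named by rule: up to 20 called, the 15 largest on each side with 1 sign on both arrays, the 10 largest opposite ones, leading members and exceptions of each list, and the 5 extremes each way of the difference between days, with a brightness of at least 64 outside the lists. The members and the 47 lists, 1 of which is reported only in part, were chosen with earlier results of these data known. The labels give no slide, date or batch, and the number of arrays limits the precision. Alternatives were the values as deposited, median centring, scaling, array weights, brightness, single features, no dye term, the cow as replicate block, arrays left out and other thresholds.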

Additional observations from a re-analysis of the deposited data

Results flagged for a closer look

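The 9 genes below had 1 sign on both day 7 arrays and the other sign on both day -14 arrays, on the Cy5 over Cy3 reading. The difference between the days was tested by limma for each and passed for none, with adjusted p-values from 0.834 to 0.983. Groups of 2 arrays allow no check for single outlying arrays.

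For CHUK, a kinase of NF-kB signalling, the diet difference at day 7 minus that at day -14 was -0.19 on the log2 scale. It was -0.45 for the complement regulator CD46, -0.0602 for the tetraspanin TSPAN3, -0.43 for the proton pump subunit ATP6V1D and -0.23 for the autophagy gene BECN1. It was 0.53 for TBL3 of ribosome assembly, -0.12 for the GMP synthesis enzyme IMPDH1, 0.58 for the channel TRPM7 and -0.42 for the calcium pump ATP2B1. TBL3 had 0.35 and 0.54 at day 7 and -0.66 and -2.13 at day -14, and the values of the other 8 genes lay within 1 of 0 on all 4 arrays. IMPDH1 had 0.42 and 0.07 at day 7 and -0.52 and -0.12 at day -14. Its difference on these 4 arrays was thus above 0, against -0.12 in the model, which uses all 8 arrays.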

How the results depend on the processing

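The model's count of 1 called row was 43 with values as deposited, 5 with median centring, 9 without the dye term, 366 with features of a brightness of at least 64, and 0 with scaled arrays, single features, limma on the 2 day 7 arrays alone, features with a value on both day 7 arrays, or without both arrays of cow 8041, a setting chosen after the data were seen. It was 0 to 78 with an array left out, 78 without pair A and 0 without pair B. With the cow as replicate block it was 1, and the block changed no call (correlation between samples of a cow 0.21). The count of 3772 rows at an unadjusted p under 0.05 was 5693 with single features, 839 on the 2 arrays alone, 1333 without cow 8041, and 1613 (without pair B) to 4003 with an array left out. The count for the difference between days was 0 in every setting run, and the 2 arrays alone cannot give it. Rows whose mean lay past 1 numbered 2769, 1284 with scaled arrays, 1768 with bright features, 4328 with single features, and 1832 (pair A) to 5711 (pair B) on 1 pair alone. Rows above 1 on both arrays numbered 484, 303 with bright features, 751 with single features, 1403 at a threshold of 0.5 and 147 at 1.5. Rows below -1 on both numbered 138, 79 with scaled arrays, 40 with bright features, 217 with single features, 295 with a value on both day 7 arrays, 1038 at a threshold of -0.5 and 25 at -1.5. The cause of these shifts was not tested; bright features and single features also change the number of rows tested. Of the named genes with 1 sign on both arrays, the mean turned for CD46 with median centring (0.0512), for BARD1 and NOS2 with a value on both day 7 arrays (0.70 and -0.28) and for NCOA6 with bright features (0.20). No list median with 1 sign on both arrays turned under the settings run. The brightness is a lower bound, and dim features limit the smaller differences.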
